A study of Mus musculus with 8 samples.

Results

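Hepatocyte identity depends on a small set of DNA-binding proteins, and 9 of their genes are described here in mouse liver: Hnf4a, Foxa1, Foxa2, Foxa3, Onecut1, Onecut2, Nr5a2, Prox1 and Hhex. They were taken by symbol from a deposited table of read counts that lists 15864 genes. Each of the 9 symbols matched 1 gene, and all 9 passed the filter on low counts among 14664 genes tested. KO consists of 5 livers with the genotype Alb-cre Mfrn1-/- Mfrn2 -/-, and WT consists of 3 livers labelled as wild type. Mfrn1 (gene Slc25a37) and Mfrn2 (gene Slc25a28) are the mitoferrins, which carry iron into mitochondria. Alb-cre expresses Cre recombinase from the albumin promoter, which is active in hepatocytes. The design text describes loss in hepatocytes and controls of matched age, while the labels give no age in weeks, no sex and no Cre status for the controls. Mice of both groups were kept on standard chow. The question was which liver transcripts differ when both carriers are lost.

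These factors form a network in which many members bind the control regions of one another's genes. Hnf4a is a nuclear receptor that keeps adult hepatocytes differentiated, and the Foxa proteins are forkhead factors that can open closed chromatin. Onecut1 and Onecut2 carry a cut domain and a homeodomain and act in the choice between hepatocyte and bile duct fate. Nr5a2, also called Lrh-1, is a nuclear receptor of bile acid and cholesterol genes. Prox1 and Hhex are homeodomain proteins needed for the early liver bud, and Prox1 also works as a corepressor of Hnf4a and Nr5a2.

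Promoter sequences were available from RefSeq (GRCm38.p6) for 8 of the 9 genes, as 13 windows of 250 bases before an annotated start. The 6 windows below belong to Onecut1 and Foxa1, whose levels varied together across libraries, to Foxa2 and Hnf4a, the windows with a match to the Onecut-type letters, and to Prox1 and Hhex, the factors with the smallest p between the groups. Each is written 5′ to 3′ on the strand of its gene and ends at the base before the RefSeq start. That start can differ from the end of the gene span given with the counts. The Hhex window lies inside that span, and the Hnf4a and Foxa1 windows run into theirs. Capitals mark exact matches, on either strand, to TGTTTAC (Foxa type), ATTGAT (Onecut type), CAAAGTCCA (Hnf4a type), CAAGGTCA (Nr5a2 type) or GGGCGG (GC box).
Onecut1 (chr9:74861671-74861920, plus strand): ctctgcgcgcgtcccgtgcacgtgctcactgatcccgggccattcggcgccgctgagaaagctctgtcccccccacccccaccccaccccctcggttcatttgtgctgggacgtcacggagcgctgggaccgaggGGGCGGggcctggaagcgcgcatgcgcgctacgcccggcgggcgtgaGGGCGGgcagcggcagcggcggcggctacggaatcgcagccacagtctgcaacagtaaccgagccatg
Foxa1 (chr12:57546112-57546361, minus strand): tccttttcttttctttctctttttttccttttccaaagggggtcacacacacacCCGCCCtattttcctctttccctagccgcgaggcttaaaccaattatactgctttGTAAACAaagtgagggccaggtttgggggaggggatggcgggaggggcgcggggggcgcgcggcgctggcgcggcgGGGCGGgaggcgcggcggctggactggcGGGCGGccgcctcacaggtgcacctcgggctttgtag
Foxa2 (chr2:148046970-148047219, minus strand): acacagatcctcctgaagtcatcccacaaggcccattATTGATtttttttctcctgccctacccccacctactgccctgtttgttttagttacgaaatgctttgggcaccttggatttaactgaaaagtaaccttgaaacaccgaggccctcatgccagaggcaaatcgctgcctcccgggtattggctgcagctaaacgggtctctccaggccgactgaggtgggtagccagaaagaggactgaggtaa
Hnf4a (chr2:163506607-163506856, plus strand): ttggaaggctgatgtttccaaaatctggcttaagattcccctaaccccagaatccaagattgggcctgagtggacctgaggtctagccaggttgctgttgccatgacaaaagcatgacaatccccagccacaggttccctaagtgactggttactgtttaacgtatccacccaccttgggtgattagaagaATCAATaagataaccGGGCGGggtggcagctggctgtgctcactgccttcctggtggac
Prox1 (chr1:190170828-190171077, minus strand): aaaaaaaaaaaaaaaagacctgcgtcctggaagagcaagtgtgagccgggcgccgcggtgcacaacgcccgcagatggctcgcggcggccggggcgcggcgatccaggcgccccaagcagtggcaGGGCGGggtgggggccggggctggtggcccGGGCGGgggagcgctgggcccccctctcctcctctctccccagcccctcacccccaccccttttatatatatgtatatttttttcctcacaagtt
Hhex (chr19:37434591-37434840, plus strand): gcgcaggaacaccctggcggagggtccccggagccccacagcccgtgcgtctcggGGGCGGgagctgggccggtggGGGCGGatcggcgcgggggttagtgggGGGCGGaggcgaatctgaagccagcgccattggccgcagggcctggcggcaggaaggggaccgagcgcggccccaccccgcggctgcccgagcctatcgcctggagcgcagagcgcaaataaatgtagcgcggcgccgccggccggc

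The Onecut-type letters stood in 2 of the 13 windows, beginning 213 bases before the start in Foxa2 and, on the opposite strand, 59 bases before it in Hnf4a. Hnf4a has 2 windows, and this match lies in the one further upstream. The other, at chr2:163546905-163547154, held no match to any of the letters. Which Hnf4a start was used in these livers was not tested. The same letters were found in 6.72% of all 32851 promoter windows. The Foxa-type letters stood in 1 window, that of Foxa1, beginning 141 bases before its start on the opposite strand, and in 3.17% of all windows. GC boxes were found in 9 of the 13 windows and in 32.7% of all windows. The Hnf4a-type and Nr5a2-type letters were in none of the 13 windows, with shares of 0.384% and 1.33% over all windows. No base lay in 2 matches. A match describes letters only, and Prox1 and Hhex shared no match but GC boxes.

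The table holds raw read counts per gene, and library totals were 24.6 to 31.9 M counts in KO livers and 35.5 to 43.1 M in WT livers. Slc25a28 averaged 0.725 ± 0.111 CPM in KO livers and 17.1 ± 0.851 CPM in WT livers (CPM, read counts scaled to a common library total after TMM normalization, SD, n = 5 and 3), and it was at 0.592 to 0.888 CPM in the 5 KO livers and 16.6 to 18.1 CPM in the 3 WT livers (edgeR adjusted p = 1.92e-07). Slc25a37 averaged 8.32 ± 1.72 CPM in KO livers and 17.8 ± 5.06 CPM in WT livers, at 5.76 to 10.6 and 12.9 to 23.0 CPM in the same order (edgeR adjusted p = 0.104, DESeq2 adjusted p = 0.000337). Albumin, at 74400 ± 5630 CPM in KO livers and 71100 ± 1640 CPM in WT livers, marked both groups as liver. KO replicates 1 and 2 stood apart in clock genes, with the clock output factor Dbp at 69.3 and 54.5 CPM against 1.23 to 2.93 CPM in the other libraries. WT replicate 1 was the lowest WT liver in several of the 9 factors, as described below. The labels do not say that each sample came from a separate animal, so a p-value refers to spread among samples that may be technical in part. In whole liver, fewer cells of a type and less RNA per cell cannot be told apart.

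Hnf4a was by far the most abundant of the 9 transcripts per length and Foxa1 the least abundant. In the authors' FPKM (fragments scaled by gene length and by library total), Hnf4a averaged 103 ± 9.03 in KO livers and 108 ± 7.18 in WT livers (SD, n = 5 and 3). In each library it was 3.87 to 5.38 times the level of the next factor, which was Foxa3 in 6 libraries, Nr5a2 in KO replicate 1 and Foxa2 in WT replicate 3. Foxa1 averaged 2.98 ± 0.529 FPKM in KO livers and 2.79 ± 1.16 FPKM in WT livers and was the lowest factor in all 8 libraries. The mean WT level of Hnf4a exceeded that of 96.8% of the genes in the table, and that of Foxa1 exceeded 48.7%.

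The 7 factors between them lay close together. Over the 8 libraries the order of mean FPKM was Foxa3, Nr5a2, Foxa2, Prox1, Onecut2, Onecut1 and Hhex. Neighbours in this order were not separated by their spread, since the first of each pair was above the second in only 5 to 7 of 8 libraries. KO means in FPKM were 23.0 for Foxa3, 16.9 for Nr5a2, 16.0 for Prox1, 15 for Foxa2, 14.8 for Onecut2, 11.4 for Onecut1 and 8.13 for Hhex. WT means in FPKM were 21.5 for Foxa3, 19 for Foxa2, 17.5 for Nr5a2, 13.2 for Hhex, 10.4 for Onecut2, 10.3 for Prox1 and 9.42 for Onecut1. By these means Hhex was last of these 7 in KO livers, while in WT livers it stood above Onecut2, Prox1 and Onecut1. Single livers did not all hold to this order. Hhex was below Prox1 and Onecut2 in WT replicate 1, below Onecut1 in WT replicate 3 and above Onecut1 in KO replicate 3.

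**Figure D1:**
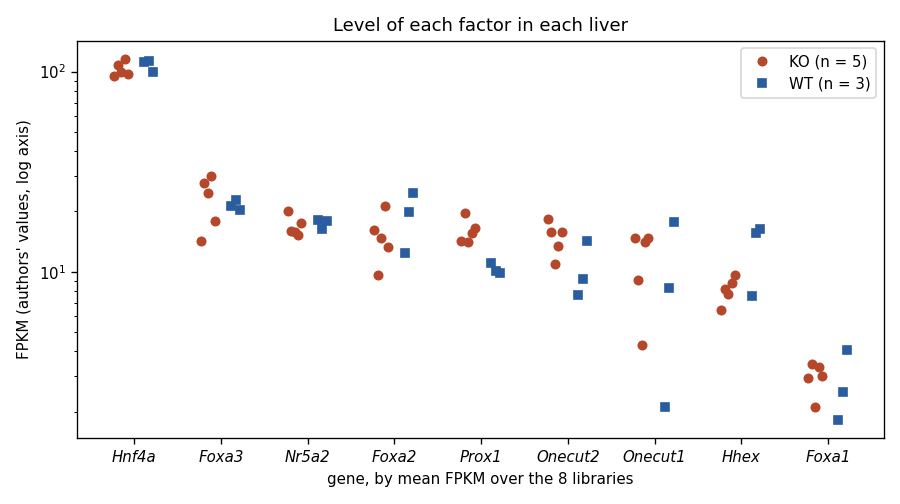
The authors' FPKM on a log axis for each of the 9 factors, ordered by the mean over the 8 libraries, with 1 point per liver (circles KO, n = 5; squares WT, n = 3). Hnf4a lies near 100 in every liver, Foxa1 is lowest in every liver, and Onecut1 spreads most widely, with its lowest WT value at 2.10.

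No factor passed edgeR's test between KO and WT livers after adjustment over all genes, and DESeq2 called Prox1 alone. EdgeR's quasi-likelihood test called 0 of 9 at an adjusted p under 0.05, where it called 0.109% of all tested genes (16 of 14664), 0.0477% as higher and 0.0614% as lower. At an unadjusted p under 0.05 it placed 3 of 9 factors, Prox1, Hhex and Onecut2, against 10.4% of all tested genes. Prox1 and Onecut2 were on the higher side, where 5.67% of genes lay, and Hhex on the lower side, where 4.68% lay. DESeq2 called 1 of 9, Prox1, against 1.62% of the genes it tested (0.946% higher, 0.675% lower). Limma-voom called 0 of 9, against 0.123% of all genes (0.0546% higher, 0.0682% lower). By the adjusted p of the authors' deposited table, 1 of 9 was under 0.05, again Prox1, against 1.48% of all genes (0.826% higher, 0.656% lower). Of the 9 fold changes, 5 were positive and 4 negative, with a median log2 fold change of 0.09, beside a median of -0.004 over all tested genes. The groups did not overlap for 1 of 9 factors, against 6.94% of all tested genes (3.2% higher, 3.74% lower). Against such backgrounds, 1 of 9 is 11.1% and 3 of 9 is 33.3%, each resting on very few genes.

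**Figure D2:**
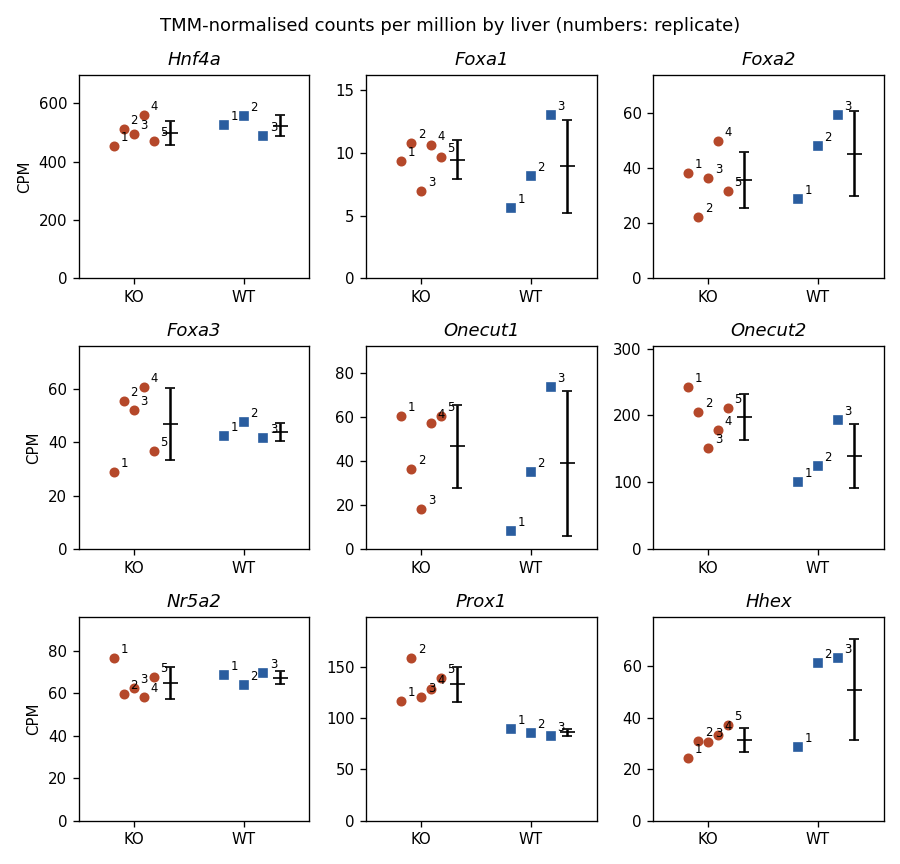
TMM-normalised CPM of each factor in each liver, on linear axes from 0, with KO at the left and WT at the right of each panel, replicate numbers beside the points, and black marks for mean and SD (n = 5 and 3). Prox1 is the one factor whose groups do not overlap, and in Hhex, Onecut1, Onecut2, Foxa1 and Foxa2 WT replicate 1 is the lowest WT liver.

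Prox1 was higher in each KO liver than in each WT liver. It was counted at 117, 159, 121, 129 and 139 CPM in KO replicates 1 to 5, against 89.9, 86.0 and 82.4 CPM in WT replicates 1 to 3. The KO livers thus lay above a narrow WT range, and KO replicate 2 was the highest. The mean was 133 ± 16.9 CPM in KO livers and 86.1 ± 3.77 CPM in WT livers (SD, n = 5 and 3). The log2 fold change of 0.63 ± 0.113 (SE) corresponds to 1.55-fold, with a 95% interval from 1.30-fold to 1.84-fold, and it did not pass over all genes (edgeR adjusted p = 0.088). DESeq2 gave an adjusted p of 8.6e-05, and the authors' deposited table holds a log2 ratio of 0.58 with an adjusted p of 8.87e-05. When any 1 library was left out, the log2 fold change stayed between 0.56 and 0.68 (edgeR adjusted p from 0.0848 to 0.263).

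The size of the Prox1 difference was similar in subsets of the libraries. Without KO replicates 1 and 2, whose clock genes stood apart, the log2 fold change was 0.60 (edgeR adjusted p = 0.139), and among samples whose titles carry numbers beginning with 82, which are 2 KO and 3 WT livers, it was 0.64 (edgeR adjusted p = 0.112). Prox1 has a long gene model of 8323 bases, and library profiles differed in their trend with gene length. With that trend removed, its log2 fold change was 0.54 (edgeR adjusted p = 0.152).

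Prox1 lies on the minus strand of chromosome 1 at 190118038 to 190170680 (mm10, ENSMUSG00000010175). Its antisense neighbour Prox1os overlaps it by 385 bases, or 0.731% of its span, and was at 4.34 to 7.02 CPM in KO livers and 4.43 to 4.80 CPM in WT livers (edgeR adjusted p = 0.45). Whether reads were counted by strand is not stated in the labels. Prox1 also marks lymphatic endothelium. Of 6 lymphatic markers, 4 passed the filter, and their summed level was 217 to 274 CPM in KO livers and 245 to 253 CPM in WT livers, most of it Reln, which stellate cells also express. Among the others, the receptor Flt4 averaged 33.5 ± 3.87 CPM in KO livers and 33.4 ± 6.09 CPM in WT livers, while Pdpn and Ccl21a were under the filter. The part of lymphatic cells in the Prox1 difference was not tested.

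Hhex had the opposite direction in the means, but its WT livers were far apart. It was counted at 24.4, 30.8, 30.5, 33.4 and 37.0 CPM in KO replicates 1 to 5, against 28.4, 61.1 and 63.2 CPM in WT replicates 1 to 3. WT replicate 1 lay within the KO range, and the other 2 WT livers lay above all 5 KO livers. The mean was 31.2 ± 4.62 CPM in KO livers and 50.9 ± 19.5 CPM in WT livers, which is -0.70 ± 0.234 (SE) as a log2 fold change (edgeR adjusted p = 0.357, DESeq2 adjusted p = 0.137). The 95% interval ran from 0.427-fold to 0.882-fold. Without WT replicate 1 the log2 fold change was -0.98 and passed (edgeR adjusted p = 0.0408), and without any other single library the adjusted p lay between 0.302 and 0.63. Among samples numbered 82 it was -0.53 (edgeR adjusted p = 0.682), and without KO replicates 1 and 2 it was -0.59 (edgeR adjusted p = 0.741).

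Hhex lies on chromosome 19 at 37432887 to 37440728 (plus strand, ENSMUSG00000024986), 6.22 Mb from Slc25a28, and it is the one factor of the 9 on a chromosome of a targeted carrier gene. Within 10 Mb of Slc25a28 on either side, 161 genes besides Slc25a28 were tested, Hhex among them. EdgeR called 0 of the 161, and DESeq2 called 5 of the 161, where it called 1.62% of all genes. The groups did not overlap for 10 of these 161 genes (6.21%, against 6.94% of all tested genes), and 9 of the 161 had a fold change below that of Hhex. Genotypes at this locus beyond the labels were not analysed here. Hhex is also expressed in liver endothelium, where 10 of 10 listed markers were tested and none passed. Their summed level was 481 to 632 CPM in KO livers and 489 to 589 CPM in WT livers, so the groups overlapped.

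**Figure D3:**
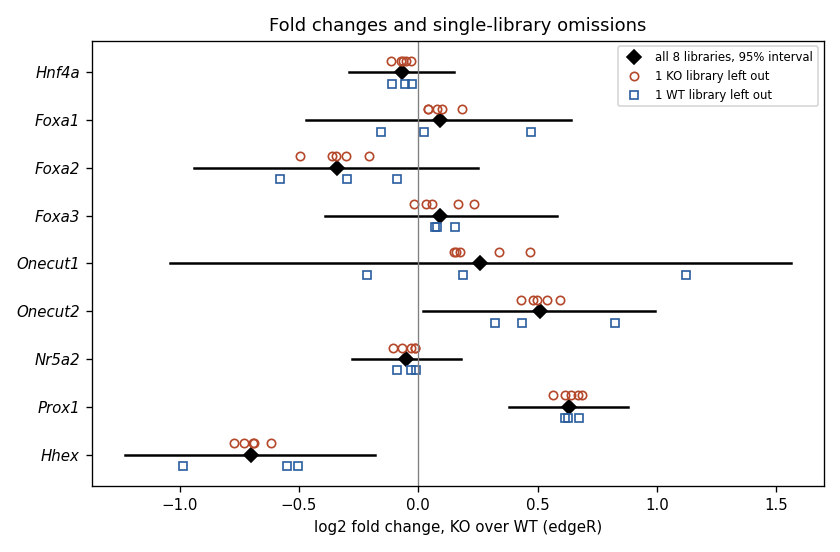
Log2 fold change of KO over WT for each factor from edgeR (diamonds, all 8 libraries, with 95% intervals) and with 1 KO library (circles) or 1 WT library (squares) left out. Prox1 keeps a value between 0.56 and 0.68 in each omission, Hhex stays below 0 and falls to -0.98 without WT replicate 1, and Onecut1 ranges from -0.21 to 1.12.

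Onecut1 was the most variable of the factors within groups, and its mean did not separate the groups. It was counted at 60.5, 36.7, 18.3, 57.6 and 60.7 CPM in KO replicates 1 to 5, against 8.47, 35.0 and 73.9 CPM in WT replicates 1 to 3. WT livers held both the lowest and the highest value, which differed 8.73-fold. The mean was 46.8 ± 18.8 CPM in KO livers and 39.1 ± 32.9 CPM in WT livers, which is 0.26 ± 0.581 (SE) as a log2 fold change (edgeR adjusted p = 0.911). Its 95% interval, from 0.487-fold to 2.95-fold, holds both lower and higher levels in KO livers. The value turned to -0.21 without WT replicate 1 and reached 1.12 without WT replicate 3. The pooled SD within groups was 1.10 on the log2 CPM scale, above that of 99.6% of the 4034 genes within 1 log2 unit of its level, whose median was 0.138.

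Onecut1 lies on the plus strand of chromosome 9 at 74861921 to 74891784 (ENSMUSG00000043013). The noncoding gene Gm20649 overlaps 99% of its span on the same strand, so reads may have been split between them or counted in both. Gm20649 was at 49.6, 32.7, 17.4, 48.5 and 49.7 CPM in KO replicates 1 to 5, against 7.65, 27.8 and 57.5 CPM in WT replicates 1 to 3. The libraries stand in the same order as for Onecut1, and the counts of the pair are not taken as independent.

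Onecut2, the close relative of Onecut1, was higher on average in KO livers without passing. It was counted at 243, 205, 151, 178 and 211 CPM in KO replicates 1 to 5, against 100, 125 and 193 CPM in WT replicates 1 to 3. WT replicate 3 lay among the KO livers, and the other 2 WT livers lay below all 5. The mean was 198 ± 34.8 CPM in KO livers and 139 ± 47.9 CPM in WT livers, which is 0.51 ± 0.217 (SE) as a log2 fold change (edgeR adjusted p = 0.471), with a 95% interval from 1.01-fold to 1.99-fold. Its gene model is the longest of the 9 at 13390 bases, and with the trend in gene length removed the log2 fold change was 0.38 (edgeR adjusted p = 0.477). Without WT replicate 3 it was 0.83 (edgeR adjusted p = 0.184), and without WT replicate 1 it was 0.32 (edgeR adjusted p = 0.891).

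Summed FPKM of Onecut1 and Onecut2 was 33.1, 24.8, 15.2, 27.5 and 30.3 in KO replicates 1 to 5, against 9.75, 17.5 and 32.1 in WT replicates 1 to 3. Onecut2 made up 48.7% to 71.7% of that sum in KO livers and 44.5% to 78.4% in WT livers. Its share was highest in WT replicate 1 and KO replicate 3, the livers with the least Onecut1. Onecut1 and Onecut2 are also expressed in bile duct cells, for which 8 of 12 listed markers were tested and none passed. Those markers summed to 120 to 162 CPM in KO livers and 140 to 155 CPM in WT livers, and in WT replicate 1 the sum was 140, equal to that of WT replicate 2.

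Hnf4a was steady across the livers. It was counted at 454, 511, 496, 558 and 470 CPM in KO replicates 1 to 5, against 527, 556 and 486 CPM in WT replicates 1 to 3. The groups overlapped throughout, and the highest library was 1.23 times the lowest. The mean was 498 ± 40.4 CPM in KO livers and 523 ± 35.5 CPM in WT livers, which is -0.07 ± 0.0994 (SE) as a log2 fold change (edgeR adjusted p = 0.842). The 95% interval from 0.816-fold to 1.11-fold does not include 1.55-fold, the mean difference of Prox1. Its SD within groups, 0.110 on the log2 CPM scale, exceeded that of 18.5% of 394 genes of similar level.

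Hnf4a lies on the plus strand of chromosome 2 at 163506808 to 163572910 (ENSMUSG00000017950) and has a distal and a proximal promoter, whose transcripts a count per gene does not separate. The antisense gene Hnf4aos overlaps 52.8% of its span. Hnf4aos averaged 5.20 ± 1.32 CPM in KO livers and 7.83 ± 1.88 CPM in WT livers (log2 fold change -0.59 ± 0.215 SE, edgeR adjusted p = 0.404).

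Nr5a2 varied little as well. It was counted at 76.6, 59.5, 62.4, 58.3 and 67.8 CPM in KO replicates 1 to 5, against 68.3, 63.8 and 69.7 CPM in WT replicates 1 to 3. KO livers held both the highest and the lowest value. The mean was 64.9 ± 7.49 CPM in KO livers and 67.3 ± 3.10 CPM in WT livers, which is -0.05 ± 0.102 (SE) as a log2 fold change (edgeR adjusted p = 0.9), with a 95% interval from 0.824-fold to 1.13-fold. The gene lies on the minus strand of chromosome 1 at 136843584 to 136960427. Nr5a2 is also abundant in pancreatic acinar cells, for which 2 of 10 listed markers were in the table, and both were tested. The others, Prss2, Cpa1, Ctrb1, Cpb1, Pnlip, Cel, Amy2a5 and Ptf1a, were not among the genes of the table. Cela1 averaged 11.2 ± 2.61 CPM in KO livers and 20.5 ± 0.705 CPM in WT livers without overlap (edgeR adjusted p = 0.125, DESeq2 adjusted p = 0.00107). Cela2a averaged 0.461 ± 0.282 and 0.580 ± 0.168 CPM in the same order. Their part in the Nr5a2 values was not tested.

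The 3 Foxa genes, which share the forkhead domain, had fold changes of differing sign, none of which passed. Foxa2 was counted at 38.2, 22.2, 36.2, 50 and 31.8 CPM in KO replicates 1 to 5, against 28.8, 47.9 and 59.1 CPM in WT replicates 1 to 3. KO replicate 2 was lowest, WT replicate 3 highest, and the groups overlapped. KO over WT was -0.34 ± 0.265 (SE) on the log2 scale (edgeR adjusted p = 0.685), with a 95% interval from 0.523-fold to 1.19-fold, and omissions of 1 library moved it between -0.58 (without WT replicate 1) and -0.09 (without WT replicate 3). Foxa2 acts in bile acid handling and the fasting response of adult liver.

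Foxa3 was the most abundant Foxa transcript by FPKM in 6 of the 8 libraries. It was counted at 29.0, 55.6, 52.0, 60.8 and 36.9 CPM in KO replicates 1 to 5, against 42.5, 47.7 and 41.6 CPM in WT replicates 1 to 3. The KO livers lay on both sides of a narrow WT range, with KO replicates 1 and 5 below it and the other 3 above it. The mean was 46.9 ± 13.4 CPM in KO livers and 43.9 ± 3.30 CPM in WT livers, which is 0.09 ± 0.216 (SE) as a log2 fold change (edgeR adjusted p = 0.915). The CV was 28.6% in KO livers and 7.52% in WT livers, a difference in spread that was not tested.

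Foxa1 was counted at 9.34, 10.8, 6.95, 10.6 and 9.67 CPM in KO replicates 1 to 5, against 5.63, 8.17 and 13.0 CPM in WT replicates 1 to 3. The WT livers enclosed the KO range on both sides. KO over WT was 0.09 ± 0.247 (SE) on the log2 scale (edgeR adjusted p = 0.934), with a 95% interval from 0.724-fold to 1.56-fold, and it was -0.15 without WT replicate 1 and 0.47 without WT replicate 3. Raw counts of Foxa1 were 176 to 324 in KO livers and 248 to 460 in WT livers, the fewest of the 9 genes. Foxa1, Foxa2 and Foxa3 lie on chromosomes 12, 2 and 7 at 57540631 to 57546121, 148042877 to 148046969 and 19013282 to 19023538.

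**Figure D4:**
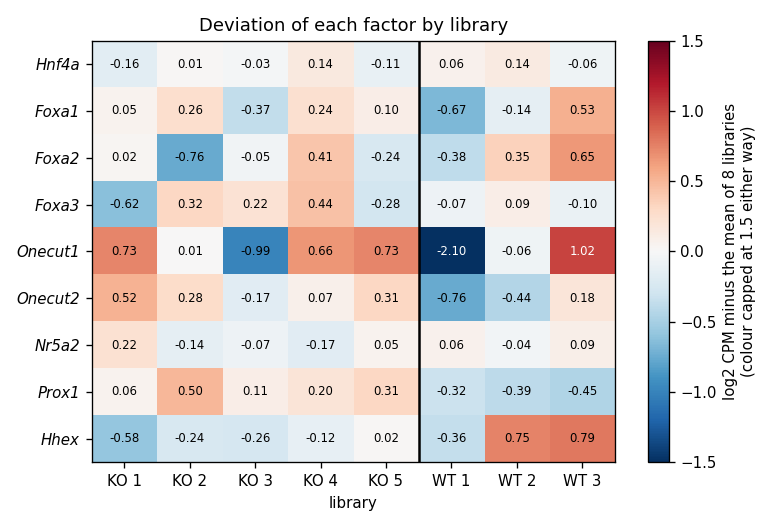
Log2 CPM of each factor in each library minus its mean over the 8 libraries, with KO libraries left of the black line and WT libraries right of it. WT 1 is at -2.10 for Onecut1, -0.76 for Onecut2 and -0.67 for Foxa1, and Prox1 is the one factor above 0 in all KO libraries and below 0 in all WT libraries.

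The steadiness of the factors fell into 2 kinds. The SD within groups on the log2 CPM scale was 0.110 for Hnf4a, 0.137 for Nr5a2 and 0.150 for Prox1, above that of 18.5%, 49.3% and 53.2% of genes of similar level. It was 0.350 for Onecut2, 0.372 for Foxa3, 0.405 for Foxa1, 0.418 for Hhex and 0.465 for Foxa2, above that of 89.4% to 97.0% of such genes, and 1.10 for Onecut1. WT replicate 1 was the lowest WT liver in 5 of the 9 factors. For Foxa1 and Onecut2, however, WT replicate 3 lay further from the WT mean of log2 CPM (0.63 and 0.52) than WT replicate 1 did (-0.58 and -0.42). As a share of the mean of WT replicates 2 and 3, WT replicate 1 held 15.6% of Onecut1, 45.7% of Hhex, 53.1% of Foxa1, 53.8% of Foxa2 and 63.0% of Onecut2. For Foxa3, Hnf4a, Nr5a2 and Prox1 that share was 95.1% to 107%. In KO replicate 3, the liver with the next lowest Onecut1, Foxa1 and Onecut2 were the lowest of the KO group, while Foxa2 and Hhex lay near the KO mean.

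Some factors varied together from library to library. Over the 8 libraries, Pearson's r of log2 CPM was 0.91 for Foxa1 with Onecut1 (Spearman's rho 0.79) and 0.83 for Onecut1 with Onecut2 (rho 0.76). Foxa3 and Nr5a2 varied inversely, with r = -0.97 (rho -0.93). For Foxa3 with Nr5a2, r lay between -0.98 and -0.94 when any 1 library was left out, and the r of Foxa1 with Onecut1 between 0.81 and 0.95. Over the 5 KO libraries alone, Foxa1 with Onecut1 had r = 0.76, on few points. For Onecut1 with Onecut2 it was 0.60 without WT replicate 1. With the trend in gene length removed the 3 values were 0.91, 0.81 and -0.95 in the order given. By Pearson's r these are the extremes of 36 pairs, chosen after their values were seen. By Spearman's rho, Hnf4a with Foxa3 stood highest (rho 0.81, r = 0.77). Depth and group differ among the libraries, so the values describe these 8 libraries only. The range of Nr5a2 behind the inverse relation was small, at 1.31-fold, while that of Foxa3 was 2.10-fold.

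**Figure D5:**
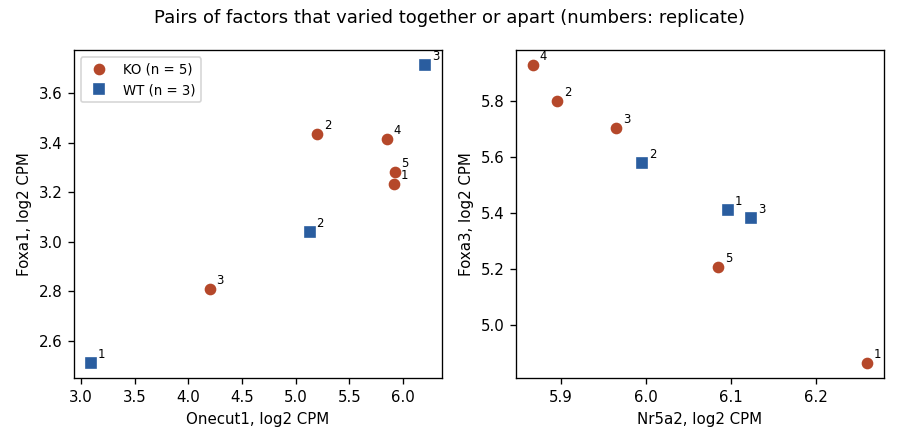
Log2 CPM of Foxa1 against Onecut1 (left) and of Foxa3 against Nr5a2 (right), 1 point per library with its replicate number (circles KO, n = 5; squares WT, n = 3). The left panel rises with r = 0.91, WT 1 at its low end, the right panel falls with r = -0.97, and in neither panel do the groups form separate clusters.

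Outside the 9 factors, the genes whose log2 CPM was most like each of them over the 8 libraries were sought among 8155 genes of mean log2 CPM 3 or more. Symbols beginning with Gm or ending with Rik were left out, and with them Gm20649, whose libraries follow Onecut1 as given above. They were Lemd2 for Hnf4a (r = 0.981), Acvr2a for Foxa1 (0.957), Adck5 for Foxa2 (0.941), Dad1 for Foxa3 (0.953), Zbtb7a for Onecut1 (0.981), Rad21 for Onecut2 (0.993), Cd99l2 for Nr5a2 (0.978), Cxcl12 for Prox1 (0.967) and Prpf18 for Hhex (0.954). The number of genes at r of 0.9 or more was 197 for Onecut2 and 2 to 31 for the other factors. Cxcl12, a chemokine, averaged 213 ± 11.7 CPM in KO livers and 172 ± 4.87 CPM in WT livers, with no overlap (edgeR adjusted p = 0.242, DESeq2 adjusted p = 0.00818). It was picked for its likeness to Prox1 over both groups, so its separation of the groups is not a separate result. Each of these genes is the best of many over few libraries and is given as a description.

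The partner transcription factors of the network did not pass either. Of 28 listed genes, such as Cebpa, the nuclear receptors and Gata4, 28 were tested and edgeR called 0, with a median log2 fold change of 0.14. Of the 28, 21 had a positive fold change, against 49.2% of all tested genes, the share that also stands beside the counts of positive fold changes in the lists that follow. DESeq2 called 2 of the 28, against 1.62% of all genes. Tbx3, a T-box factor of pericentral hepatocytes, had the smallest p, with 33.8 ± 6.13 CPM in KO livers and 18.4 ± 1.59 CPM in WT livers and no overlap (log2 fold change 0.88 ± 0.147 SE, edgeR adjusted p = 0.0742, DESeq2 adjusted p = 2.4e-05). The other DESeq2 call was Ppara, the fatty acid receptor, at 185 ± 25.2 and 126 ± 26.4 CPM in the same order (edgeR adjusted p = 0.264, DESeq2 adjusted p = 0.0479). Named after its values were seen, Cebpa averaged 333 ± 36.2 CPM in KO livers and 307 ± 24.8 CPM in WT livers, or 0.12 on the log2 scale (edgeR adjusted p = 0.736). Of the paralogs Hnf4g, Prox2 and Nr6a1, each tested and none called, Hnf4g was at 0.394 ± 0.127 CPM in KO livers and 0.308 ± 0.0923 CPM in WT livers.

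Among 20 cofactors and modifiers, 0 were called by edgeR or DESeq2, which called 0.109% and 1.62% of the genes each tested. The list had 14 positive fold changes and a median of 0.17. Med14, a Mediator subunit, had the smallest p, at 22.5 ± 2.45 CPM in KO livers and 17.8 ± 1.67 CPM in WT livers (edgeR adjusted p = 0.337). Hdac3, a corepressor with which Prox1 and Hnf4a are known to work and named after its values were seen, was at 33.4 ± 2.52 CPM in KO livers and 40.6 ± 4.19 CPM in WT livers without overlap (log2 fold change -0.28 ± 0.0921 SE, edgeR adjusted p = 0.344). Nr0b2, the repressor Shp that acts on Nr5a2 and Hnf4a, averaged 34.2 ± 11.3 and 44.0 ± 8.80 CPM in the same order (edgeR adjusted p = 0.62).

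No listed target of the factors was called by edgeR or DESeq2, which called 0.109% and 1.62% of the genes each tested. The same shares stand beside the calls in the lists that follow. Of 31 listed Hnf4a targets 18 were above 0, and the median over the list was 0.03 on the log2 scale. The target with the smallest p was Mttp, the lipid transfer protein of lipoprotein assembly and also a listed target of Prox1, at 440 ± 92.5 CPM in KO livers and 311 ± 39.8 CPM in WT livers (log2 fold change 0.50 ± 0.171 SE, edgeR adjusted p = 0.367). Otc, a urea cycle enzyme named after its values were seen, was at 504 ± 57.0 CPM in KO livers and 621 ± 15.6 CPM in WT livers without overlap (edgeR adjusted p = 0.394). Cyp7a1, the rate-limiting enzyme of bile acid synthesis, which Nr5a2 and Hnf4a activate and Prox1 represses, averaged 282 ± 159 CPM in KO livers and 193 ± 132 CPM in WT livers (log2 fold change 0.55 ± 0.578 SE, edgeR adjusted p = 0.777).

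The listed Foxa targets had 7 of 11 tested members positive and a median log2 fold change of 0.13, and Pck1, an enzyme of gluconeogenesis, had the smallest p at 1480 ± 455 CPM in KO livers and 1030 ± 154 CPM in WT livers (edgeR adjusted p = 0.492). Nr5a2 targets had 5 of 13 positive and a median of -0.14, led by the sterol transporter Abcg8 at 89.7 ± 15.9 and 111 ± 25.6 CPM in the same order (edgeR adjusted p = 0.562). Onecut1 targets had 6 of 12 positive and a median of 0.10, led by Afp, the fetal counterpart of albumin, at 0.827 ± 0.453 and 0.565 ± 0.0928 CPM (edgeR adjusted p = 0.666). Prox1 and Hhex targets had 6 of 8 positive and a median of 0.12. These lists share members, and their medians lie beside -0.004 for all tested genes.

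Hepatocyte markers showed no call, with 5 of 12 positive, a median log2 fold change of -0.12 and summed levels of 139000 to 151000 CPM in KO livers and 134000 to 150000 CPM in WT livers. Ass1, of the urea cycle, had the smallest p, at 549 ± 178 CPM in KO livers and 887 ± 206 CPM in WT livers (edgeR adjusted p = 0.436). Markers of Kupffer cells summed to 552 to 998 CPM in KO livers and 489 to 902 CPM in WT livers. Markers of stellate cells summed to 595 to 663 CPM in KO livers and 667 to 702 CPM in WT livers, without overlap and with no member called by edgeR. Their smallest p belonged to Rgs5 at 62.6 ± 2.41 and 89.2 ± 11.5 CPM in the same order (edgeR adjusted p = 0.093, DESeq2 adjusted p = 0.00052). The part of these cells in the factors' values was not tested.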

How the data were processed

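Liver RNA from 5 KO and 3 WT samples was sequenced after depletion of ribosomal RNA with a stranded total RNA kit, per the labels' protocols. Novoalign 2.8, mm10 and DESeq2 are named in the submitters' processing notes. Neither the counting program nor its use of strand is stated in the labels or the table. The authors deposited raw read counts per gene, which entered every test, and FPKM values, used here only to set levels of different genes side by side. The deposited table also holds regularised log2 values, not used here, and the authors' log2 fold change with an adjusted p as a score. That deposited score was read as a negative log10 of the adjusted p, multiplied by 10. Its rank correlation with the same transform from DESeq2 was 1, which does not set the scale. The median ratio of the score to that transform, where the transform exceeded 1, was 0.983. The deposited starts count from 0 and are printed counted from 1. An emptied line of the table was not used, and the gene with fewest counts holds 16.

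Low counts were removed by filterByExpr (edgeR 4.0.16, min.count 10, min.total.count 15), and libraries were scaled by TMM and tested in R 4.3.3 with edgeR's quasi-likelihood test, group as the only term. P-values are two-sided and adjusted by Benjamini-Hochberg over 14664 genes with a threshold of 0.05. A standard error is the fold change over the root of its F statistic, and 2 was the prior count behind log2 CPM values. DESeq2 1.42.0 and limma-voom (limma 3.58.1) were alternatives, with other scalings and filters, omitted libraries, thinned counts, a length trend and a replicate block. Replicates within a group differed by more than sampling noise (lowest chi-square per gene of 30.6 over the pairs). The procedures were tested on simulated counts. At a set log2 fold change of 0.5, edgeR recovered 16.2% of the changed genes, limma-voom 17.6% and DESeq2 39.7%. At a set value of 1 they recovered 87.9%, 86.4% and 93.9%. False calls made up 3.57%, 3.6% and 18.4% of their calls, in the same order. Figures were drawn with matplotlib 3.10.9.

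The 9 factors and all gene lists were chosen with earlier results of these data known. Named genes are the factors, the carriers, genes overlapping a factor, the gene with the smallest p of a list where none passed, and the gene most like each factor, leaving out symbols with Gm or Rik. Alb, Dbp, Reln, Flt4, Cela2a, Ppara, Nr0b2, Cyp7a1, S100a8 and those marked in the text were named after their values were seen. Intervals of fold changes are at 95%. 1 count stood for 0.0227 to 0.0404 CPM, and since reads carry no molecular identifiers, counting error alone understates the error.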

Additional observations from a re-analysis of the deposited data

How the results depend on the processing

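Over 19 alternatives, 165 of 171 fold changes of the 9 factors kept their direction and their side of the threshold, 2 came to pass and 4 changed sign. The 2 were Prox1 by DESeq2 and Hhex without WT replicate 1. DESeq2 called 257 genes and 1 factor, against 16 genes and 0 factors by edgeR. Leaving out single libraries gave 8 to 30 genes and 0 to 1 factors. The sign changed for Foxa1, Foxa3 and Onecut1, with main values of 0.09, 0.09 and 0.26, while Hnf4a and Nr5a2, at -0.07 and -0.05, kept theirs. Single omissions gave -0.15 to 0.47 for Foxa1 (below 0 without WT replicate 1) and -0.0191 to 0.24 for Foxa3 (below 0 without KO replicate 4). They gave -0.21 to 1.12 for Onecut1 (below 0 without WT replicate 1). The cause was not tested. Among replicates 1 to 3 alone, the replicate block gave 12 genes and 0 factors, and the fit without the block 21 genes and 0 factors, with Onecut1 at -0.0186 without it and 0.24 with it. Deviations of same-numbered samples had r of 0.0806, 0.0198 and -0.0604, so the numbers were not taken as pairs, and the block changed no call among the factors. The alternatives for correlations were chosen after seeing the data. With 3 WT libraries that lay far apart in Onecut1, Foxa2 and Hhex, the intervals for these factors remain wide.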

Other observations

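Transcripts used as markers of other liver states gave values not described above. H19, a noncoding RNA of fetal liver, was at 0.949 ± 0.362 CPM in KO livers and 0.313 ± 0.0987 CPM in WT livers (SD, n = 5 and 3), or 1.61 ± 0.413 (SE) on the log2 scale, which edgeR did not call (adjusted p = 0.223) and DESeq2 did (adjusted p = 0.0313). Its level was low and the groups overlapped, with KO replicate 4 at 0.363 CPM and WT replicate 3 at 0.397 CPM. The other fetal markers tested were Afp, Gpc3 and Cd24a, and edgeR called none. The neutrophil gene S100a9 was at 1.39 ± 0.588 CPM in KO livers and 4.2 ± 2.52 CPM in WT livers (edgeR adjusted p = 0.247, DESeq2 adjusted p = 0.0216), and S100a8 at 0.972 ± 0.407 and 2.36 ± 1.38 CPM in the same order (edgeR adjusted p = 0.369).

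Among longer genes of the network that were named after their values were seen, Zbtb20 averaged 284 ± 53.2 CPM in KO livers and 199 ± 39.5 CPM in WT livers (edgeR adjusted p = 0.388), Nfia 57.4 ± 12.4 and 41.2 ± 14.6 CPM (edgeR adjusted p = 0.515) and Tead1 12.6 ± 2.90 and 8.89 ± 2.62 CPM (edgeR adjusted p = 0.482). In each of these 3 genes the lowest WT value was that of WT replicate 1, as for Onecut2. For Nfia it was 32.7 CPM, against 32.8 CPM in WT replicate 2. Prox1, with a model of 8323 bases, had its highest WT value in WT replicate 1. The shorter Onecut1, Foxa1, Foxa2 and Hhex had their lowest there, and Hnf4a, Foxa3 and Nr5a2 neither. The part of gene length in these values was not tested. Deviations of log2 CPM from the mean of the 8 libraries were correlated with gene length across genes, which are not independent replicates. Spearman's rho was -0.261, -0.0764 and -0.0414 in WT replicates 1 to 3. In KO replicates 1 to 5 it was 0.169, 0.217, -0.104, -0.12 and 0.213, so the trend differed in part by group.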
